A study of Mus musculus with 6 samples.

Results

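Snora75, Snora2b, Snora34, Snora15, Snora5c and Snora23 are 6 box H/ACA small nucleolar RNAs (snoRNAs) that lie inside 5 protein-coding genes other than ribosomal protein genes: Ncl (Snora75), Kansl2 (Snora2b and Snora34), Cct6a (Snora15), Tbrg4 (Snora5c) and Ipo7 (Snora23). The rule that picked them names host genes and uses no measured value, although it was set with earlier results of these data known. They were found on the panel by their mouse RefSeq accessions; in the RefSeq annotation each of the 6 lies within the span of its listed host. They are 6 of the 67 snoRNAs measured and of the 72 on the panel. The samples were C2C12 cells, an immortal mouse myoblast line that exits the cell cycle and fuses into multinucleated myotubes when differentiated. The study compared 3 control samples of undifferentiated myoblasts with 3 samples of the same line after 7 days of differentiation into myotubes, with a custom NanoString nCounter assay that counts barcoded probes directly, with no amplification step. No other genotype or agent is named, and how many cells had fused is not stated. The panel holds no messenger RNAs, so the cell state could not be checked against muscle markers and host gene transcripts were not measured.

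Box H/ACA snoRNAs fold into hairpins joined by the H box and closed by an ACA box, and with dyskerin and its partner proteins they direct the conversion of chosen uridines of ribosomal RNA into pseudouridine. In vertebrates most of them are cut out of introns of host genes, so that host and snoRNA share a promoter and a primary transcript, while the amount of mature snoRNA also depends on its assembly into a stable particle. The hosts here serve varied functions. Ncl encodes nucleolin, an abundant nucleolar protein of ribosomal RNA synthesis and processing; Kansl2 a subunit of the NSL histone acetyltransferase complex; Cct6a a subunit of the chaperonin that folds actin and tubulin; Tbrg4 (also FASTKD4) a mitochondrial RNA-binding protein; and Ipo7 a nuclear import receptor whose cargoes include ribosomal proteins. By their human orthologues, Snora5c and Snora15 guide pseudouridylation of 18S rRNA, and Snora2b, Snora34 and Snora23 that of 28S rRNA.

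The promoters of 3 hosts are shown because Kansl2 gives rise to a pair of the snoRNAs and because Tbrg4 and Cct6a carry both snoRNAs that passed the test described below. Each window runs from 250 bases before to 50 bases after the annotated start of the gene, in RefSeq sequence of build GRCm38.p6, read 5′ to 3′ in the direction of transcription. Capitals mark every match to 6 motifs searched on both strands: CAGCTG (an E-box form bound by myogenic factors such as MyoD), CACGTG (the E-box form bound by MYC), CCAAT (NF-Y), CCGGAA (ETS family), GGGCGG (SP family) and TATAAA (the core element bound by TBP). No matches overlapped in these windows.
Kansl2, chr15:98534220-98534519, minus strand: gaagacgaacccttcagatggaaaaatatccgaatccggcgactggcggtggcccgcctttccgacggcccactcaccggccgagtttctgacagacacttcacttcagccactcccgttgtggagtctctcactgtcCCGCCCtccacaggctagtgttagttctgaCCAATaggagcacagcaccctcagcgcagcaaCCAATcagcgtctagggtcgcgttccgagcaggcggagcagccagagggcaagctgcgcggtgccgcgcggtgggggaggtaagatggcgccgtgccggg
Tbrg4, chr11:6626018-6626317, minus strand: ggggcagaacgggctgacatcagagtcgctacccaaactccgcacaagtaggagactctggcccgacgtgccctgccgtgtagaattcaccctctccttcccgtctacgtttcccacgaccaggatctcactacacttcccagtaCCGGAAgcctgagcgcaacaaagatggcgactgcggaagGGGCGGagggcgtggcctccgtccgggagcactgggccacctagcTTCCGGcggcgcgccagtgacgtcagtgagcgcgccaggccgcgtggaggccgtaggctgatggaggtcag
Cct6a, chr5:129787106-129787405, plus strand: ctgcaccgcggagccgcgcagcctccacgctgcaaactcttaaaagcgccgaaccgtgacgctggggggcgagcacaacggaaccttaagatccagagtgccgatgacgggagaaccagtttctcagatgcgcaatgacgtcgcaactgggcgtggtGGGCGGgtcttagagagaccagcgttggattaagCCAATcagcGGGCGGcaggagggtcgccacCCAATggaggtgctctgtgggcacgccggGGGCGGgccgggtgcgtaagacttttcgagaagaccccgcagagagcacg

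In the Kansl2 window CCAAT occurred 2 times and GGGCGG 1 time. Tbrg4 held CCGGAA 2 times and GGGCGG 1 time, and Cct6a CCAAT 2 times and GGGCGG 3 times. Of the hosts not shown, Ncl held GGGCGG 3 times, and Ipo7 held CACGTG and TATAAA 1 time each. CAGCTG was in none of the 5 host windows. Over 32851 mouse promoter windows of the same length, CCAAT was present in 37.4%, GGGCGG in 35.7%, CAGCTG in 16.3%, CCGGAA in 14.9%, TATAAA in 13.6% and CACGTG in 7.15%. The G and C content of the host windows was 69.3% for Ncl, 64.7% for Tbrg4, 63.3% for Cct6a, 62.7% for Kansl2 and 56.3% for Ipo7, against a median of 52.7% over all windows. A match shows only that the letters are present; binding was not measured.

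The deposited values are normalized probe counts, by their steps whole counts multiplied by one factor per sample, and are called normalized counts below. The panel totals implied by dividing out these factors were between 1097844 and 1627062 counts, lowest in myoblast sample 1, which also had the largest factor, 1.31. Other samples had factors of 1.01 to 1.11. The samples of one state were unevenly spaced: over the panel, the SD of the log2 difference between samples was 0.08 for myotube samples 1 and 2, 0.35 and 0.37 for myotube sample 3 against each of them, 0.21 for myoblast samples 2 and 3, and 0.49 and 0.36 for myoblast sample 1 against myoblast samples 2 and 3. Implied counts of myotube samples 1 and 2 differed by more than counting noise (chi-square of 882 on 66 degrees of freedom), so they are not the same set of counts. Repeat assays of one RNA could differ as much, and whether these are separate samples of cells was not tested. They are counted as 2 because the labels number them so, and of the 6 snoRNAs averaging them into one ended the call of Snora15 and took Snora75 past the threshold (adjusted p = 0.081 and 0.0496). Nothing in the labels ties the samples of a state to separate cultures, and p-values therefore reflect only sample-to-sample spread, part of which may be technical. In such bulk RNA, fewer cells with a snoRNA and less of it per cell cannot be told apart.

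Between myoblasts and myotubes, Snora5c and Snora15 rose, by 1.69-fold and 1.56-fold. Snora2b, Snora34, Snora75 and Snora23 did not pass the test (limma over the 67 snoRNAs on log2(value + 1), Benjamini-Hochberg adjusted p at or below 0.05). Over the panel 35.8% of snoRNAs passed upward, 19.4% downward and 55.2% in either direction, so 2 of 6 upward is near the background and 0 of 6 is the count downward. The median log2 change of the 6 was 0.44, with a range from -0.79 to 0.76, against a median of 0.14 and a range from -2.09 to 1.87 over the panel. The groups did not overlap for 2 of the 6, Snora5c and Snora15, against 65.7% of the panel. Within a state the 6 varied by a median SD of 0.29 on the log2 scale, against 0.21 over all 67 snoRNAs.

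**Figure D1:**
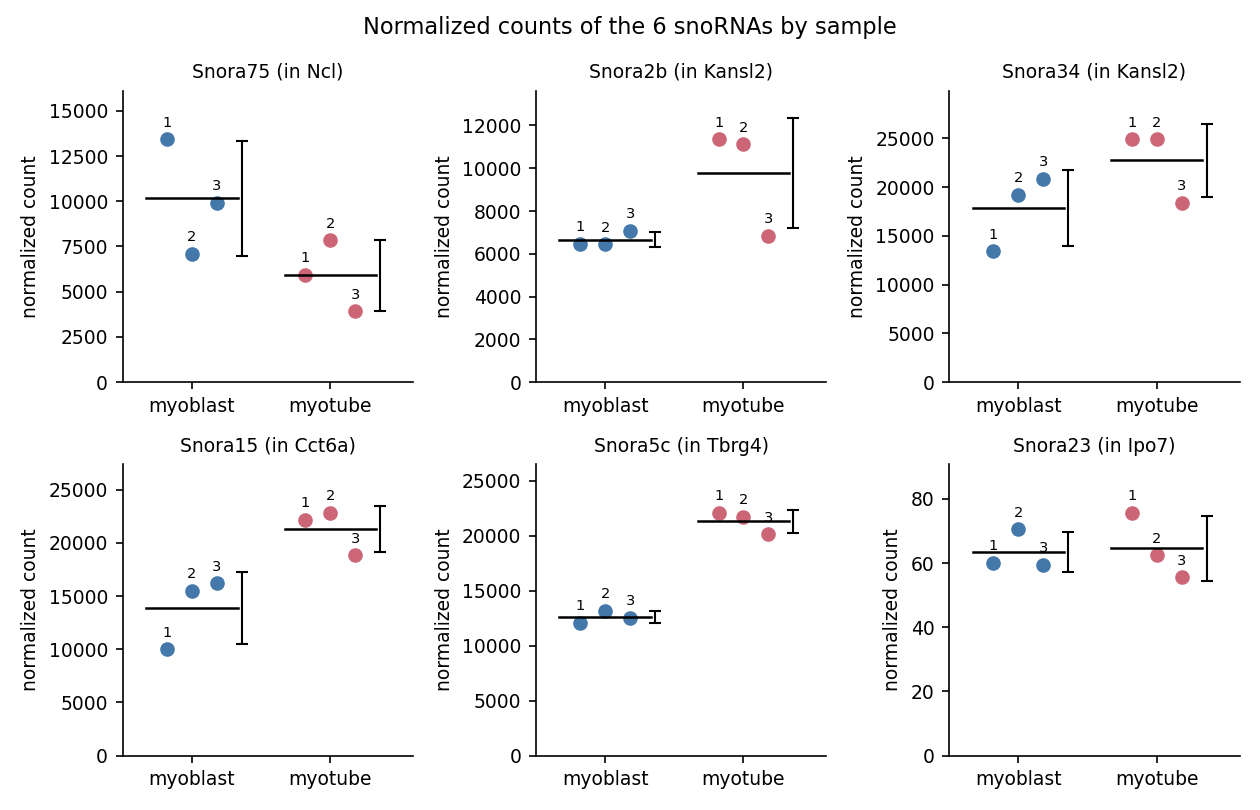
Normalized counts (linear axes from 0) of the 6 snoRNAs in each sample, with sample numbers beside the points; horizontal lines are the means of 3 samples and bars the SD. The 3 myotube points of Snora5c and of Snora15 lie above all their myoblast points, while for Snora2b and Snora34 myotube sample 3 lies within the myoblast range.

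Snora5c, the 18S rRNA guide in Tbrg4, had the most even readings of the 6. It was counted at 12099, 13204 and 12532 in myoblast samples 1 to 3 and at 22121, 21730 and 20166 in myotube samples 1 to 3. The lowest myotube value was well above the highest myoblast value, and within each state the highest sample was at most 1.1 times the lowest. The means were 12612 ± 557 and 21339 ± 1034 (SD, n = 3 each), a log2 change of 0.76 ± 0.11 SE with a 95% interval from 0.50 to 1.01 (limma, adjusted p = 0.0011). Its SD within states, 0.07 on the log2 scale, ranked 62 of 67 from the widest, while its change ranked 19 of 67 from the highest. The change stayed past the threshold under all 15 alternatives run, at 0.57 to 0.80 with adjusted p from 0.0011 to 0.020.

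Snora15, the 18S rRNA guide in Cct6a, had normalized counts of 10003, 15491 and 16209 in myoblast samples 1 to 3 and of 22166, 22844 and 18848 in myotube samples 1 to 3. Myoblast sample 1 was low against the other two, by 0.66 on the log2 scale below their mean, and the groups did not overlap. The means were 13901 ± 3395 and 21286 ± 2138 (SD, n = 3 each), a log2 change of 0.64 ± 0.20 SE with a 95% interval from 0.16 to 1.12 (limma, adjusted p = 0.028). Without myoblast sample 1 the log2 change was 0.42 (adjusted p = 0.025). The call ended without myotube sample 1 or 2 (0.61 and 0.59, adjusted p = 0.085 and 0.081), with these samples averaged into one (0.60, adjusted p = 0.081) and when values were quantile normalized (0.37, adjusted p = 0.18).

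The readings of Snora5c and Snora15 can be set against each other within a sample, where the scaling factor cancels. The ratio of Snora5c to Snora15 was 1.21, 0.852 and 0.773 in myoblast samples 1 to 3, against 0.998, 0.951 and 1.07 in myotube samples 1 to 3. The myotube ratios lay inside the range of the myoblast ratios. Its log2 value averaged -0.11 ± 0.34 over myoblasts and 0.01 ± 0.09 over myotubes (SD, n = 3 each), so the states differed by 0.12 ± 0.20 SE (exact two-sided permutation p = 0.6; the smallest possible is 0.1).

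Kansl2 is the host of both Snora2b and Snora34, guides of 28S rRNA. Snora2b had normalized counts of 6469, 6436 and 7075 in myoblast samples 1 to 3 and of 11363, 11134 and 6839 in myotube samples 1 to 3. The myoblast values were close together, myotube samples 1 and 2 stood above them, and myotube sample 3 lay within their range. As ratios to the myoblast mean, myotube samples 1 and 2 averaged 1.69 and sample 3 was 1.03. The means were 6660 ± 360 and 9779 ± 2548 (SD, n = 3 each), and the log2 change was 0.52 ± 0.21 SE with a 95% interval from 0.03 to 1.00 (limma, adjusted p = 0.066). Without myotube sample 3 the log2 change was 0.76 (adjusted p = 0.0022), past the threshold. It also passed with sample medians subtracted (0.46, adjusted p = 0.039) and with quantile-normalized values (0.45, adjusted p = 0.0029). With medians subtracted limma gave every snoRNA the same SE, 0.20. Quantile-normalized values follow the rank within a sample, which for Snora2b was 37, 37 and 38 in myotube samples 1 to 3. Its SE there was 0.05 and not 0.21, so the low reading of myotube sample 3 hardly entered.

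Snora34 had normalized counts of 13419, 19217 and 20876 in myoblast samples 1 to 3 and of 24913, 24932 and 18421 in myotube samples 1 to 3. Myoblast sample 1 was the lowest of all 6, and myotube sample 3 lay below myoblast samples 2 and 3. The means were 17837 ± 3915 and 22755 ± 3754 (SD, n = 3 each), with a log2 change of 0.36 ± 0.21 SE and a 95% interval from -0.12 to 0.85 (limma, adjusted p = 0.18). As a ratio, this interval runs from 0.918-fold to 1.8-fold. Under none of the 15 alternatives did Snora34 pass, and its log2 change ran from 0.11 to 0.51.

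Within a sample, the ratio of Snora2b to Snora34 was 0.482, 0.335 and 0.339 in myoblast samples 1 to 3, against 0.456, 0.447 and 0.371 in myotube samples 1 to 3. Myoblast sample 1 had the highest ratio and the other myoblast samples the lowest, so the states overlapped. Its log2 value averaged -1.40 ± 0.30 over myoblasts and -1.24 ± 0.16 over myotubes (SD, n = 3 each), and the difference of 0.16 ± 0.20 SE did not exceed the spread (exact two-sided permutation p = 0.4). Without myoblast sample 1 the difference was 0.33 (exact permutation p = 0.2). A ratio between different probes also carries how well each hybridises, so only its movement between samples is read.

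Snora75, in the nucleolin gene, had normalized counts of 13435, 7098 and 9925 in myoblast samples 1 to 3 and of 5930, 7856 and 3920 in myotube samples 1 to 3. Myotube sample 2 exceeded myoblast sample 2, and otherwise every myotube value was below every myoblast value. Both states were widely spread, the highest sample being 1.89 times the lowest in myoblasts and 2.0 times in myotubes. The means were 10153 ± 3175 and 5902 ± 1968 (SD, n = 3 each). The log2 change was -0.79 ± 0.31 SE with a 95% interval from -1.52 to -0.06 (limma, adjusted p = 0.064, unadjusted p = 0.037). Its SD within states, 0.48 on the log2 scale, was the fourth widest of the panel. The value was below 0 under all 15 alternatives, from -1.03 to -0.52, and passed the threshold under 6 of them. Among these were equal panel totals (-0.97, adjusted p = 0.043) and leaving out myoblast sample 2 (-1.03, adjusted p = 0.021) or myotube sample 2 (-1.03, adjusted p = 0.022). Without myoblast sample 1 it was -0.56 (adjusted p = 0.23), and without myotube sample 3 it was -0.52 (adjusted p = 0.17).

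Snora23, in Ipo7, had the lowest reading of the panel in every sample. Its normalized counts were 60.1, 70.6 and 59.5 in myoblast samples 1 to 3, against 75.7, 62.5 and 55.6 in myotube samples 1 to 3, from implied counts of 46 to 70. The highest and the lowest value were both in myotubes, and the states overlapped. Counting error alone gives a sample an SD of 0.17 to 0.21 on the log2 scale at these counts, and the measured SD was 0.14 in myoblasts and 0.22 in myotubes. The log2 change was 0.02 ± 0.15 SE with a 95% interval from -0.33 to 0.37 (limma, adjusted p = 0.90). This interval spans changes from 0.793-fold to 1.29-fold, and a change within it could not be told from no change. The table holds no negative control probes, and whether this level lies above background was not tested. For the other 5 snoRNAs the counting SD was at most 0.024, below their SD within either state. These SDs cover counting error only.

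**Figure D2:**
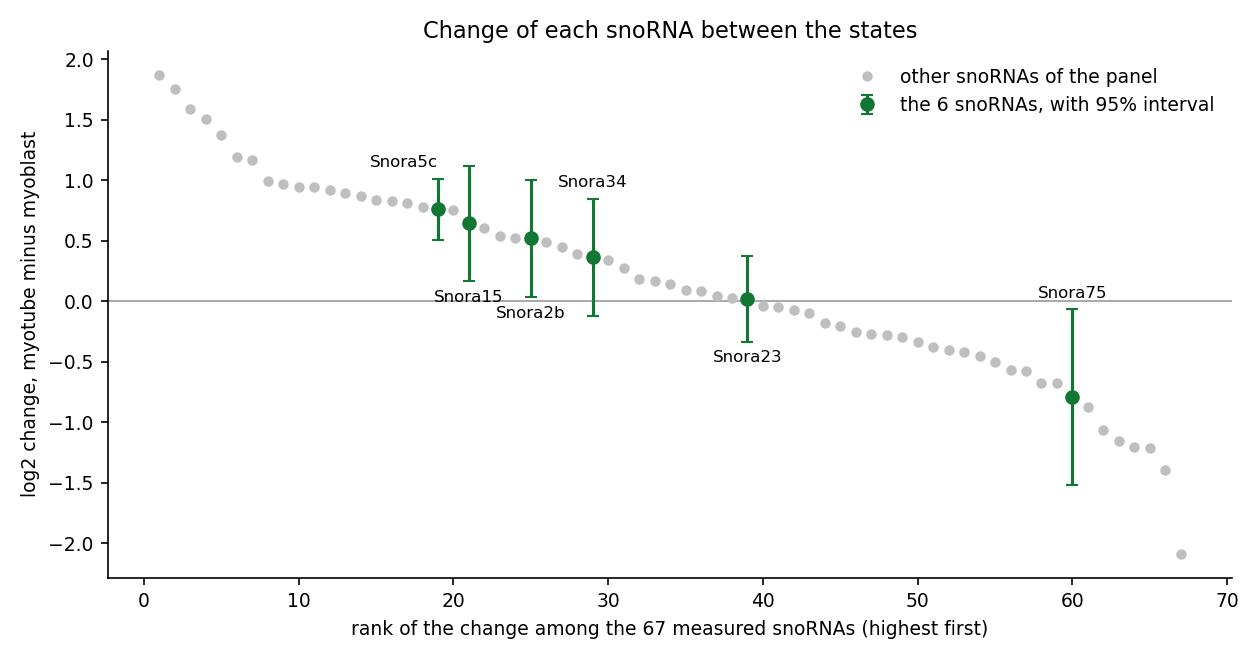
Log2 change from myoblasts to myotubes (vertical axis) of the 67 measured snoRNAs ordered from the highest (horizontal axis); green points are the 6 snoRNAs with 95% intervals from limma, grey points the others. The intervals of Snora5c and Snora15 lie above 0 by the widest margins, that of Snora75 reaches from -1.52 to -0.06, and Snora23 sits at 0.02.

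The samples that set the spread differed among the 6. In myotube sample 3 all 6 read lower than the mean of myotube samples 1 and 2, by -0.80 (Snora75), -0.72 (Snora2b), -0.44 (Snora34), -0.30 (Snora23), -0.26 (Snora15) and -0.12 (Snora5c) on the log2 scale, where the median of the panel was -0.15. In myoblast sample 1, Snora15 and Snora34 were 0.66 and 0.58 lower than the mean of myoblast samples 2 and 3, Snora75 was 0.68 higher, and Snora2b, Snora5c and Snora23 differed by -0.06, -0.09 and -0.11, with a panel median of -0.12. Thus Snora2b was uneven in myotubes (SD 0.41 on the log2 scale) and even in myoblasts (0.08), Snora15 was more uneven in myoblasts (0.38) than in myotubes (0.15), and Snora75 was uneven in both (0.46 and 0.50). Myoblast sample 1 was also the sample with the lowest implied total; the part of depth in these differences was not tested.

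**Figure D3:**
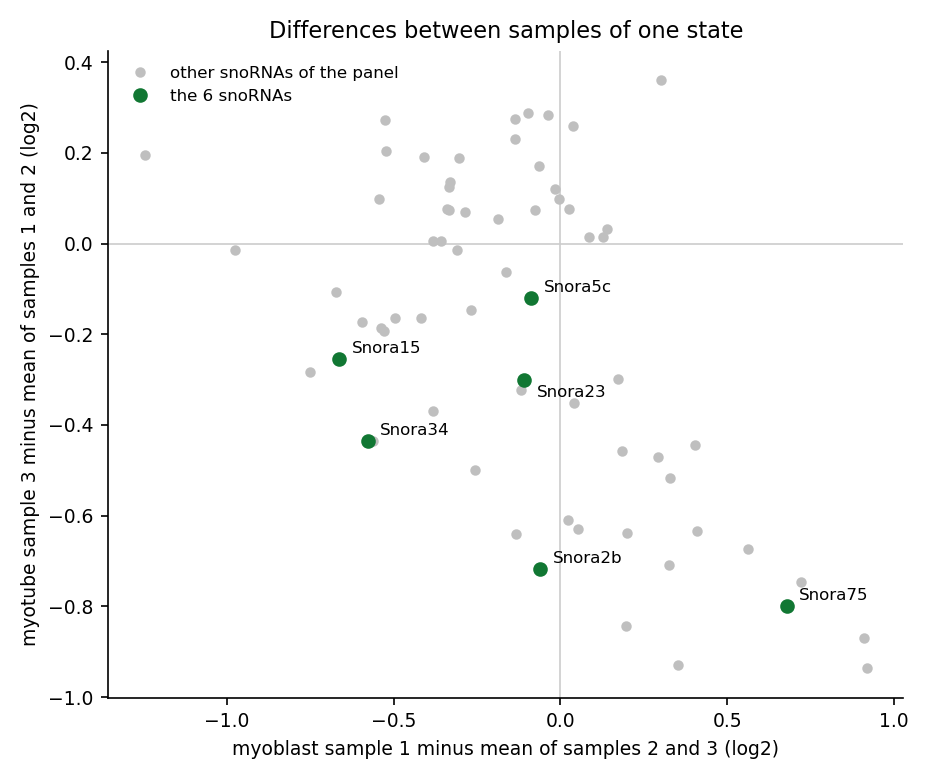
Log2 difference of myoblast sample 1 from the mean of myoblast samples 2 and 3 (horizontal axis) against that of myotube sample 3 from the mean of myotube samples 1 and 2 (vertical axis), for the 6 snoRNAs (green) and the rest of the panel (grey). Snora5c lies near 0 on both axes, Snora2b is displaced on the vertical axis alone, and Snora75 on both, at 0.68 and -0.80.

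The rank of a probe's reading within its own sample does not depend on the scaling factor, and was added after the values were seen. Counted from the highest of the 67, Snora75 ranked 29, 39 and 37 in myoblast samples 1 to 3, against 45, 41 and 50 in myotube samples 1 to 3. Snora2b ranked 41, 41 and 42, then 37, 37 and 38. Snora5c moved from ranks 32, 29 and 35 to 25, 26 and 23, and Snora15 from 35, 27 and 26 to 24 in each myotube sample. The ranks of these 4 did not overlap between states, Snora75 being further down and the other 3 further up in myotubes. Those of Snora34 (30, 22 and 23, then 23, 23 and 25) overlapped, and Snora23 was last throughout. Ranks did not overlap for 67.2% of the panel, 35.8% upward and 31.3% downward, so 4 of 6 is again near the background. A rank also moves when other probes move.

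Other panel snoRNAs with a symbol were ordered by likeness of pattern, measured as the root mean square difference of log2 values centred on each snoRNA's own mean over the 6 samples. Nearest to Snora5c were Snora68 and Snora7a, at 0.10 and 0.11, where the median over all other snoRNAs was 0.40. Both also rose, with log2 changes of 0.9 and 0.6 (limma, adjusted p = 0.00039 and 0.0021). Nearest to Snora15 was Snora70, at 0.13, followed by Snora34 at 0.16. Snora70 rose as well, by 0.84 (limma, adjusted p = 0.0037). Snora15 was in turn the nearest to Snora34, ahead of its Kansl2 neighbour Snora2b and followed by Snora17 at 0.17. Snora17 passed the test, at a log2 change of 0.45 (limma, adjusted p = 0.024). Snora2b was most like Snora41 and Snora69, at 0.11 and 0.13, which had log2 changes of 0.49 and 0.39 and did not pass the test. Snora75 was most like Snora65 and Snora64, at 0.17 and 0.27, with a median of 0.66 over all others; these had log2 changes of -0.58 and -0.28 (adjusted p = 0.19 and 0.37). Snora23 was most like Snora44 and Snora21, at 0.15 and 0.17, which did not pass. These distances describe 6 samples of 2 states and were not tested.

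Set beside other guides, both listed 18S rRNA guides among the 6 rose, and of the 5 other listed 18S rRNA guides 3 rose and 1 fell, with a median log2 change of 0.84. None of the 3 listed 28S rRNA guides among the 6 passed, and of the 12 others 6 rose and 2 fell, with a median of 0.36. Of the 27 other measured snoRNAs with a symbol 11 rose and 4 fell, with a median of 0.27 and a median SD within states of 0.21; these include the other listed guides. Of the 34 measured snoRNAs without a symbol 11 rose and 9 fell, with a median of -0.01, and over all 67 the shares were 35.8% and 19.4%. Snora75, at a log2 change of -0.79 that did not pass, was placed on neither list, since its target was not certain here, so the counts by target leave it out. Guide targets were listed from background knowledge of human orthologues, were not checked here, and no test of a list was made.

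**Figure D4:**
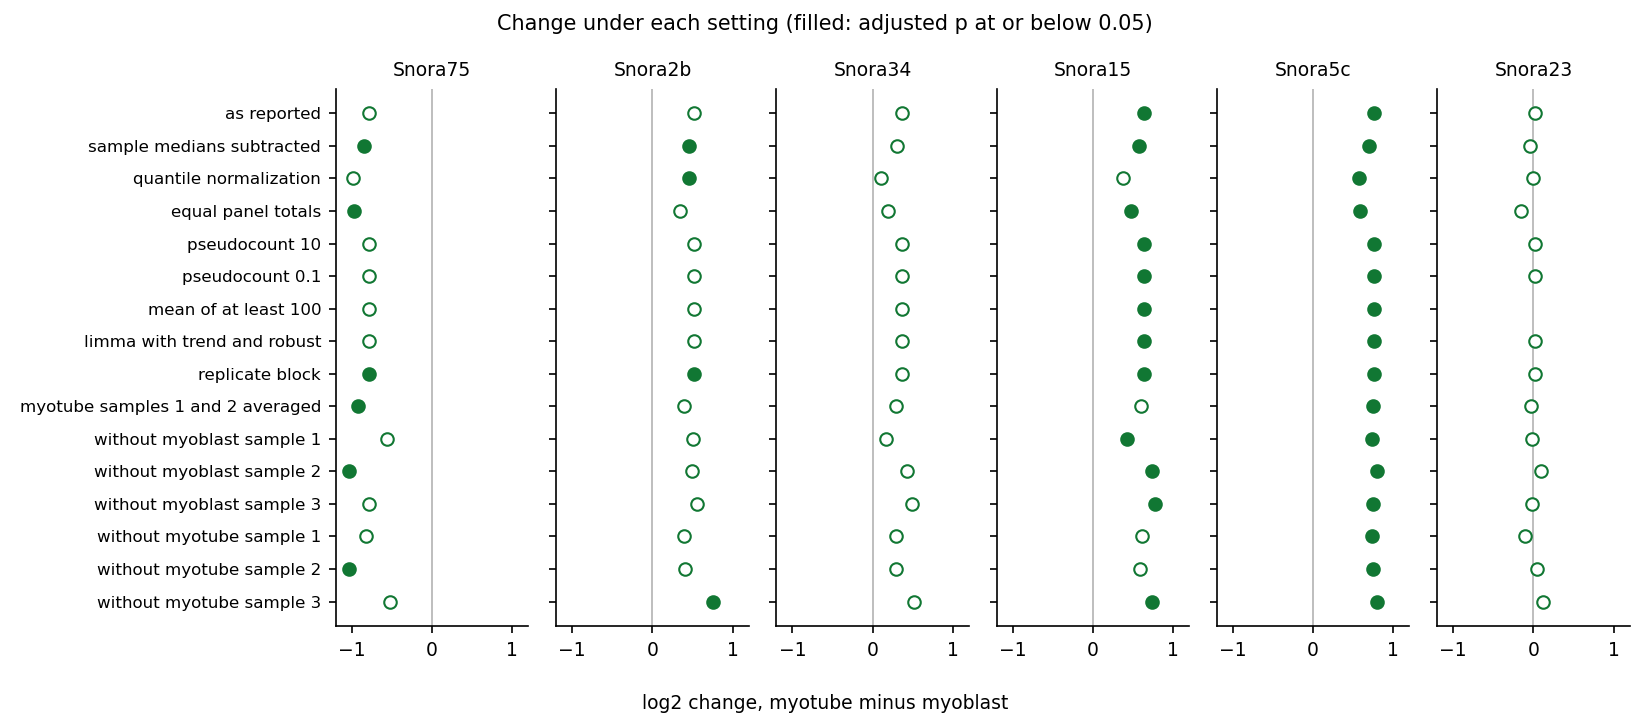
Log2 change of each of the 6 snoRNAs (horizontal axes) under the reported setting and each alternative (rows); filled points had an adjusted p at or below 0.05 and open points did not. Snora5c is filled in every row, Snora34 and Snora23 in none, and Snora75 stays left of 0 with 6 filled alternatives.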

How the data were processed

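Total RNA of 6 C2C12 samples was isolated with Trizol, DNase treatment and RNeasy columns, per the labels' protocols, and hybridised to custom NanoString nCounter probes, as the series' design states. The deposited signal of each probe was a normalized count: every sample's 67 values were multiples of a single step by whole numbers, within 0.05 of a count. The basis of this factor and any background removal are not stated. Probes were named by unversioned RefSeq accession (34 of 72 matched, GRCm38.p6). The probes' genome build is not stated, so snoRNA coordinates are not printed, and snoRNA sequences were not used here. The members and lists were chosen with earlier results of these data known.

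Values were analysed as log2(value + 1) with limma 3.58.1 (R 4.3.3), a linear model with state as its single term and moderated variances without trend, two-sided, with Benjamini-Hochberg adjustment over the 67 measured snoRNAs. No filter on low values was used. Ratios within a sample were compared by exact two-sided permutation over the samples. All 6 members are named, with the 2 nearest other snoRNAs of each by pattern. Alternatives were 3 scalings, 2 pseudocounts, a minimum mean of 100, a robust fit with trend, the replicate number as a block, averaging myotube samples 1 and 2, and leaving out each sample. The limma step was tested on data simulated with independent errors, which cannot show how it behaves with the unevenly spaced samples here. Python 3.11.15, numpy 2.4.6, pandas 2.3.3, scipy 1.17.1 and matplotlib 3.10.9 were used for the remaining steps.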

Additional observations from a re-analysis of the deposited data

How the results depend on the processing

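Snora5c passed the threshold upward under all 15 alternatives. Snora34 stayed above 0 under all 15 but passed under none. Snora75 passed with sample medians subtracted (log2 change -0.85), equal panel totals (-0.97), the replicate block (-0.79) and myotube samples 1 and 2 averaged (-0.92). Snora2b passed with sample medians subtracted (0.46), quantile normalization (0.45) and the replicate block (0.52). With medians subtracted or the block, limma gave every snoRNA one SE, 0.20 or 0.23, so the spread of a single snoRNA, wide for Snora75, did not enter. Under quantile normalization the SE of Snora2b was 0.05. Snora15 missed the threshold under quantile normalization (0.37) and with myotube samples 1 and 2 averaged (0.60). Snora23 turned below 0 with medians subtracted (-0.04), equal panel totals (-0.15) and the averaged samples (-0.03), none past the threshold. Leaving out each sample gave 0.73 to 0.80 for Snora5c, 0.42 to 0.77 for Snora15, 0.39 to 0.76 for Snora2b, 0.17 to 0.51 for Snora34, -1.03 to -0.52 for Snora75 and -0.10 to 0.12 for Snora23. It gave 0.07 to 0.33 for the Snora2b to Snora34 ratio and -0.01 to 0.31 for the Snora5c to Snora15 ratio, whose sign changed without myoblast sample 3. Over the panel it gave 19 to 29 snoRNAs higher (24 as reported) and 9 to 17 lower (13 as reported). Equal panel totals gave 20 lower and 22 higher, and like quantile normalization they shifted log2 changes by -0.18 in the median. Deviations of same-numbered samples from their state means correlated at 0.44, -0.74 and -0.02 over the panel. Deviations within a state depend on one another, so these values cannot show whether same-numbered samples shared a culture or day. The labels do not state it. The cause of the differences between settings was not tested. The edgeR tests planned on implied counts were not run: the deposited values are scaled, and 67 of them are under the 100 low values required here before whole counts are tested as such. Among the 6, Snora23 had the lowest implied counts, 46 to 70, and the part of depth in its result was not tested.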
